A study of Mus musculus with 37 samples.

Results

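The Slit ligands and their Robo receptors were followed through cultured cardiac fibroblasts (CFs), neonatal rat ventricular myocytes (NRVMs) and the nonmyocytes of injured mouse hearts. The genes were chosen by name as a ligand and receptor family: Slit1, Slit2 and Slit3 for the ligands and Robo1, Robo2, Robo3 and Robo4 for the receptors. These 7 genes stood among 30892 genes listed in the CF table, where all 7 were present, among 20158 in the NRVM table, where 6 were present, and among 31053 gene identifiers in the single-cell tables. The names set no threshold, but they were proposed with results of these tables in view, so every p-value below is the value the fit over all genes returned and is no independent evidence of a change.

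Slits are large secreted glycoproteins that were first known for repelling growing axons. Robo receptors are transmembrane proteins of the immunoglobulin superfamily, some of which bind Slits through their ectodomains. Inside the cell Robo tails recruit adaptors and small GTPase regulators, such as the srGAPs, that change the actin cytoskeleton and cell movement. In the heart the pathway is known from the formation of chambers, valves and septa, and Robo4 is known as a receptor of the vascular endothelium.

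The study asked how the ectonucleotidase ENPP1, which hydrolyses extracellular ATP to AMP, changes signals between cardiac muscle cells and nonmyocytes after injury. Wild type C57BL/6 CFs, a line immortalized with the SV40 antigen, received medium conditioned by NRVMs (MCndM) that had been given vehicle, ENPP1, ATP, ENPP1+ATP or AMP, and RNA was taken at 24 or 48 h from 2 libraries in each of 10 groups. The NRVMs, wild type Sprague-Dawley rat cells labelled with the same 5 media at 24 h, gave 3 libraries per group. Their organism is listed as mouse, but their cell type and strain labels name rat and they were treated as rat. Nonmyocytes of C57BL/6 hearts 7 days after myocardial infarction gave 1 single-cell library labelled wild type, called control here, and 1 labelled ENPP1CKO, in which a tamoxifen-inducible Cre driven by Col1a2 deletes floxed ENPP1, so the deletion reaches only cells that express this promoter. The CFs stand for 1 immortalized line, and the number of hearts behind each single-cell library is not given in the sources used here. The study describes n as biological replicates and gives an n of 2 for the RNA-Seq of CFs. The labels do not say that replicates were separate cultures, so p-values measure only the spread between these libraries.

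CF libraries held 32.2 M to 115.8 M reads over genes and NRVM libraries 13.5 M to 17.0 M, with a biological coefficient of variation of 0.0590 and 0.0499. All 8 fibroblast markers were present in CFs, with a summed level of 6857 to 7200 CPM (read counts scaled to library size, with TMM factors) with vehicle MCndM at 24 h, against 5.26 to 6.08 CPM for the 8 endothelial markers. Other lists were higher in these libraries, with 571 to 586 CPM for the 5 dendritic markers listed. Smooth muscle or pericyte markers summed to 116 to 119 CPM and cardiomyocyte markers to 21.8 to 23.6 CPM. NRVM libraries held a summed fibroblast level of 24748 to 26134 CPM with vehicle beside a cardiomyocyte level of 26910 to 27893 CPM.

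In the mouse genome (GRCm38, GENCODE annotation) Robo1 lies at chr16:72308306-73046095 on the plus strand and Robo2 on the same chromosome at chr16:73891839-74411825 on the minus strand. Robo3 at chr9:37415669-37433246 on the minus strand and Robo4 at chr9:37401897-37415115 on the plus strand end 553 bases apart, tail to tail. Slit1 lies at chr19:41600257-41743665 on the minus strand, Slit2 at chr5:47983138-48307733 and Slit3 at chr11:35121224-35708507, both on the plus strand. No other annotated gene touched an exon of any of the 7 genes, so their exonic reads had no second annotated owner. Slit2 and Slit3 each carry a microRNA of the miR-218 family, Mir218-1 at chr5:48223942-48224051 in intron 16 of Slit2 and Mir218-2 at chr11:35616816-35616925 in intron 14 of Slit3. The mature miR-218-5p was the same sequence from both loci, and it is shown because it belongs to the transcripts of both ligands that CFs expressed at more than trace level. Its seed, bases 2 to 8, is in capitals, and the microRNA itself was not measured in these tables.
miR-218-5p: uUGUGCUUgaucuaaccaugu

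The promoters of Robo3, the receptor with the largest rise in CFs, and of Slit3, the ligand with the largest log2 fall, are shown as 300 bases around the annotated start, from RefSeq (GRCm38.p6), with each GGGCGG, read on either strand, in capitals. Robo3 is at chr9:37433126-37433425, printed from the minus strand, and Slit3 at chr11:35121206-35121505, printed from the plus strand.
Robo3 promoter: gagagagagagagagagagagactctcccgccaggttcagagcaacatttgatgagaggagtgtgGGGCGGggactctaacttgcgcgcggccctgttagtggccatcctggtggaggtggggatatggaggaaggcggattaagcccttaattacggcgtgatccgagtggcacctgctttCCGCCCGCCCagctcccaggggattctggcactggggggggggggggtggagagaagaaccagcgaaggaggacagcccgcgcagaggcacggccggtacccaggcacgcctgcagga
Slit3 promoter: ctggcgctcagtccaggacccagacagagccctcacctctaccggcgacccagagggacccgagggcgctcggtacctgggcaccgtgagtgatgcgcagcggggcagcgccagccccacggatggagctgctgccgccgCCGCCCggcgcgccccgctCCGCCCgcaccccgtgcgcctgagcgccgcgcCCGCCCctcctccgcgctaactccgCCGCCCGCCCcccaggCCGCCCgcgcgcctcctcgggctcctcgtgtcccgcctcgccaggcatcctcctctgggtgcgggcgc
The motif occurred 3 times at Robo3, 6 times at Slit3 and 3 times at Slit2, counting overlapping matches, and not in the windows of Robo1, Robo2 or Robo4, while 35.7% of all 32851 promoter windows held it. CCAAT was found once, at Robo4 (37.4% of all windows), and TATAAA once, at Slit2 (13.6% of all windows). Such matches describe the letters in these windows only, and Slit1 was not among the 6 genes with a window.

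In CFs with vehicle MCndM at 24 h, Slit2 and Robo1 were the leading ligand and receptor per length of exon sequence. Slit2 stood at 4.20 and 4.06 CPM per kb, Robo1 at 3.12 and 3.08, and Slit3 at 1.28 and 1.09. Robo2 followed at 0.154 and 0.182, Robo3 at 0.0972 and 0.0982 and Slit1 at 0.0355 and 0.0203, so no neighbours in this order overlapped. Robo4, the endothelial receptor, had 0 to 3 reads in each of the 20 CF libraries and was the only member that did not pass the filter on low counts. In the bulk libraries, fewer cells of a type and less RNA per cell cannot be told apart.

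Against vehicle, the receptor Robo3 and the ligand Slit1 were higher, and the ligands Slit3 and Slit2 lower, with ENPP1+ATP and AMP MCndM at both times. Of 6 members tested, 5 passed an adjusted p of 0.05 with ENPP1+ATP at 24 h, where 49.1% of all 17879 genes tested did, and 5 passed with AMP, where 52.8% did. At 48 h, 5 members passed with ENPP1+ATP (45.2% of all genes) and 5 with AMP (44%). ATP MCndM moved 5 members at 24 h (11.1% of all genes) and 2 at 48 h (7.83%). ENPP1 MCndM moved 0 members at 24 h (0% of all genes) and 0 at 48 h (0%). The same vehicle libraries served all media at each time, so these counts are not independent of each other.

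Robo3, a divergent family member known for guiding axons across the midline, had the largest changes among the members. At 24 h its level was 0.666 and 0.673 CPM with vehicle, 1.13 and 0.879 with ENPP1, 3.94 and 3.37 with ATP, 32.3 and 29.0 with ENPP1+ATP and 55.6 and 47.5 with AMP. The 48 h levels were 0.773 and 0.999 with vehicle, 0.987 and 1.19 with ENPP1, 6.87 and 4.42 with ATP, 38.5 and 49.5 with ENPP1+ATP and 37.5 and 45.2 with AMP. The ATP libraries stood above every vehicle and ENPP1 library and below every ENPP1+ATP and AMP library at both times, and the last pair of media overlapped at 48 h only.
With ENPP1+ATP at 24 h Robo3 rose 45.7-fold (log2 fold change 5.52, SE 0.21, edgeR quasi-likelihood test, adjusted p = 6.1e-14), and with AMP it rose 76.8-fold (6.26, SE 0.21, adjusted p = 5.3e-15). At 48 h the rise was 49.7-fold with ENPP1+ATP (5.64, SE 0.21, adjusted p = 2.8e-14) and 46.9-fold with AMP (5.55, SE 0.21, adjusted p = 3.4e-14). ATP alone raised it 5.47-fold at 24 h (2.45, SE 0.25, adjusted p = 1.6e-06) and 6.48-fold at 48 h (2.70, SE 0.24, adjusted p = 3.3e-07). Per length, Robo3 reached 4.71 and 4.24 CPM per kb with ENPP1+ATP and 8.12 and 6.93 with AMP at 24 h, against 3.48 and 3.39 CPM per kb for Robo1 in the same AMP libraries. Its reads per library ran from 28 and 76 with vehicle at 24 h to 2286 and 3631 with AMP.

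Slit3, a ligand known from mesothelial, vascular and cardiac tissue, moved the other way. At 24 h it stood at 7.79 and 6.63 CPM with vehicle, 7.55 and 7.41 with ENPP1, 2.09 and 3.35 with ATP, 1.35 and 1.40 with ENPP1+ATP and 0.584 and 1.18 with AMP. Its 48 h values were 11.9 and 12.6 with vehicle, 11.5 and 11.7 with ENPP1, 6.43 and 5.50 with ATP, 2.43 and 1.60 with ENPP1+ATP and 1.83 and 2.03 with AMP. Every ATP library lay below the vehicle libraries of its time and above the ENPP1+ATP and AMP libraries. Its reads per library ran from 24 and 90 with AMP to 890 and 276 with vehicle at 24 h.
With ENPP1+ATP, Slit3 fell by 2.40 on the log2 scale at 24 h (SE 0.23, edgeR adjusted p = 3.9e-09) and by 2.59 at 48 h (SE 0.22, adjusted p = 4.9e-10). With AMP it fell by 2.95 (SE 0.23, adjusted p = 1.0e-10) and by 2.67 (SE 0.22, adjusted p = 2.9e-10), which was 7.73-fold lower at 24 h. Without 24 h AMP replicate 2 the 24 h value was -3.63 (adjusted p = 5.92e-10). With ATP it fell by 1.42 at 24 h (SE 0.21, adjusted p = 3.6e-05) and by 1.04 at 48 h (SE 0.19, adjusted p = 7.9e-04).

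Slit2, the ligand with the highest level per length, changed over a narrow range. At 24 h it stood at 107 and 103 CPM with vehicle, 101 and 96.4 with ENPP1, 82.7 and 81.5 with ATP, 83.7 and 84.2 with ENPP1+ATP and 71.0 and 75.3 with AMP. In the 48 h libraries it was at 119 and 116 with vehicle, 117 and 112 with ENPP1, 109 and 110 with ATP, 85.8 and 86.6 with ENPP1+ATP and 87.9 and 83.7 with AMP. The ENPP1+ATP and AMP libraries lay below the vehicle libraries at both times, and the ATP libraries lay beside those of ENPP1+ATP at 24 h and nearer to vehicle at 48 h.
Slit2 fell by 0.32 with ENPP1+ATP (SE 0.05, edgeR adjusted p = 2.9e-06), by 0.52 with AMP (adjusted p = 1.1e-09) and by 0.36 with ATP (adjusted p = 8.9e-06) at 24 h, all on the log2 scale. At 48 h it fell by 0.45 with ENPP1+ATP (adjusted p = 2.4e-08) and by 0.45 with AMP (adjusted p = 1.8e-08), and its value with ATP was -0.10 (adjusted p = 0.24).

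Slit1, known mainly from the nervous system, had 5 to 24 reads in each library of vehicle, ENPP1 and ATP and 46 to 146 reads with ENPP1+ATP and AMP. At 24 h it stood at 0.210 and 0.120 CPM with vehicle, 0.147 and 0.335 with ENPP1, 0.261 and 0.419 with ATP, 1.13 and 1.77 with ENPP1+ATP and 1.70 and 1.91 with AMP. Slit1 at 48 h stood at 0.147 and 0.270 with vehicle, 0.269 and 0.143 with ENPP1, 0.382 and 0.303 with ATP, 1.42 and 1.98 with ENPP1+ATP and 1.56 and 2.15 with AMP. The ENPP1+ATP and AMP libraries did not overlap those of the other media.
The log2 rise of Slit1 was 3.01 with ENPP1+ATP at 24 h (SE 0.45, edgeR adjusted p = 4.4e-06), which was 8.05-fold, and 3.33 with AMP (SE 0.45, adjusted p = 7.7e-07). At 48 h it was 3.02 (SE 0.46, adjusted p = 6.6e-06) and 3.15 (SE 0.46, adjusted p = 3.6e-06). With ATP the values were 0.92 at 24 h (SE 0.50, adjusted p = 0.32) and 0.73 at 48 h (adjusted p = 0.55).

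**Figure D1:**
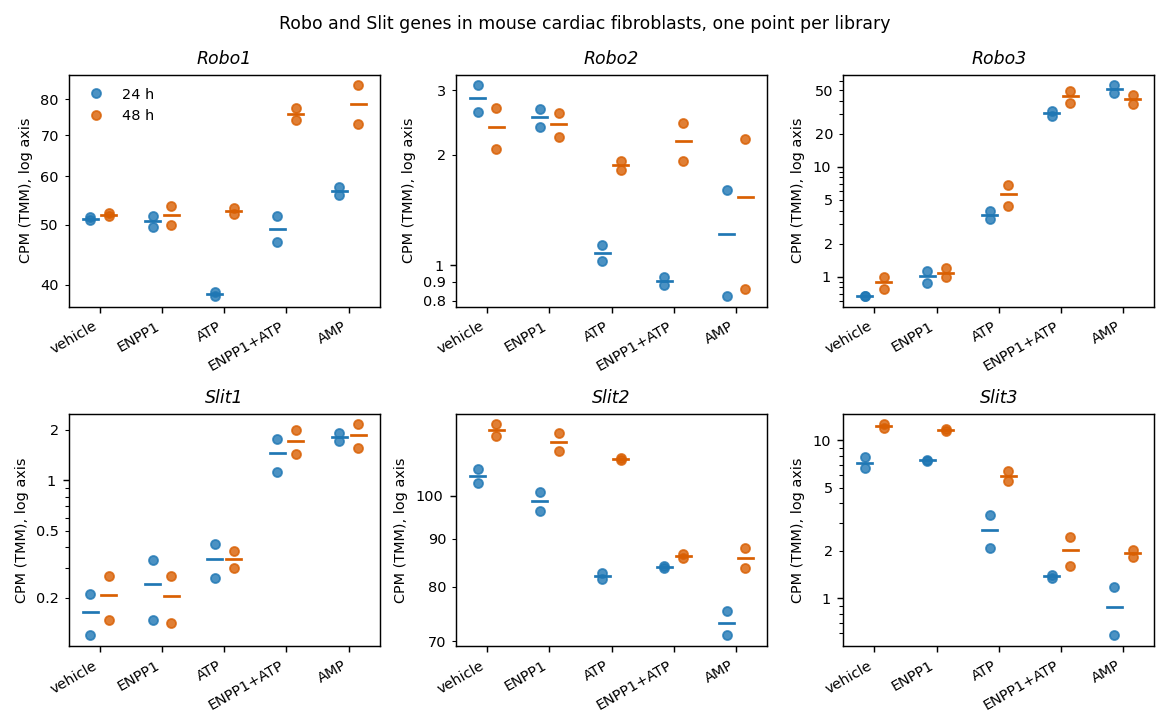
Level of each tested member in CPM (TMM, log axis) in every CF library, with 24 h in blue, 48 h in orange and a short bar at the mean of the 2 libraries. At 24 h Robo3 runs from 0.666 CPM with vehicle to 55.6 with AMP while Slit3 runs from 7.79 with vehicle to 0.584 with AMP, and the 2 libraries of Robo2 with AMP lie far apart.

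Robo1, the leading receptor of CFs with vehicle MCndM and a main binding partner of Slit2, was higher at 48 h with ENPP1+ATP and AMP and lower at 24 h with ATP. At 24 h it stood at 51.5 and 50.9 CPM with vehicle, 51.8 and 49.6 with ENPP1, 38.3 and 38.9 with ATP, 46.8 and 51.7 with ENPP1+ATP and 57.5 and 56.0 with AMP. Robo1 at 48 h stood at 52.2 and 51.7 with vehicle, 50.1 and 53.7 with ENPP1, 53.2 and 52.1 with ATP, 74.1 and 77.4 with ENPP1+ATP and 73.1 and 84.4 with AMP. At 48 h every ENPP1+ATP and AMP library lay above all others, while at 24 h the ENPP1+ATP libraries overlapped vehicle.
The log2 rise at 48 h was 0.54 with ENPP1+ATP (SE 0.06, edgeR adjusted p = 1.2e-07) and 0.60 with AMP (SE 0.06, adjusted p = 2.3e-08), and the value with ATP was 0.02. At 24 h Robo1 fell by 0.41 with ATP (adjusted p = 8.5e-05). Its value was -0.06 with ENPP1+ATP (adjusted p = 0.51) and 0.15 with AMP (SE 0.06, adjusted p = 0.052). With DESeq2 the AMP value at 24 h passed the threshold (0.17, adjusted p = 0.030).

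Robo2, a receptor that shares the domain build of Robo1, was low in CFs. At 24 h it stood at 2.61 and 3.10 CPM with vehicle, 2.67 and 2.39 with ENPP1, 1.13 and 1.02 with ATP, 0.881 and 0.928 with ENPP1+ATP and 1.61 and 0.824 with AMP. The 48 h libraries held 2.69 and 2.08 with vehicle, 2.60 and 2.24 with ENPP1, 1.93 and 1.82 with ATP, 1.93 and 2.44 with ENPP1+ATP and 2.21 and 0.858 with AMP. At 24 h the libraries of these 3 media lay below vehicle, and at 48 h those of ENPP1+ATP and AMP overlapped it.
At 24 h Robo2 fell by 1.65 on the log2 scale with ENPP1+ATP (SE 0.34, edgeR adjusted p = 2.6e-04), by 1.27 with AMP (SE 0.33, adjusted p = 0.0020) and by 1.39 with ATP (SE 0.33, adjusted p = 0.0063). The AMP call was lost without AMP replicate 2 (-0.82, adjusted p = 0.070), and the ATP call without ATP replicate 1 (adjusted p = 0.052), ATP replicate 2 (adjusted p = 0.076) or vehicle replicate 2 (adjusted p = 0.051). At 48 h its values were -0.13 with ENPP1+ATP (adjusted p = 0.77), -0.64 with AMP (adjusted p = 0.12) and -0.35 with ATP (adjusted p = 0.70). Without AMP replicate 1 the AMP value at 48 h was -1.46 (adjusted p = 0.0030), so 1 library decided that call.

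**Figure D2:**
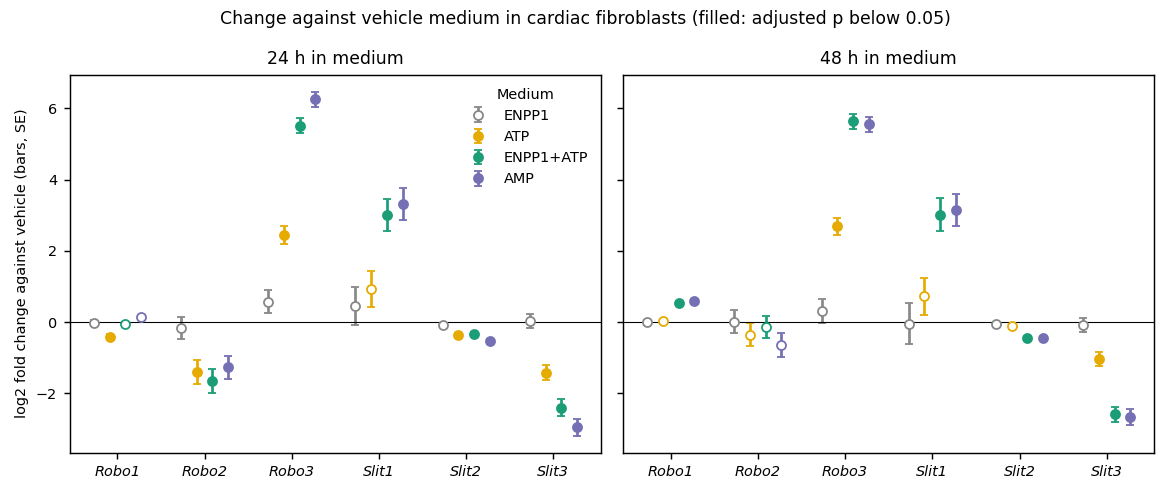
Log2 fold change against vehicle MCndM of each tested member in CFs by medium and time, with bars for the standard error, where filled points passed an adjusted p of 0.05. Robo3 and Slit1 lie above 0 and Slit3 and Slit2 below 0 with ENPP1+ATP and AMP at both times, and all ENPP1 points are open.

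The media were also set against each other. With ENPP1 MCndM alone 0 genes passed in edgeR and 0 in DESeq2, while 249 genes at 24 h and 743 at 48 h had an unadjusted p under 0.05, none of them a member. The largest member value was Robo3 at 24 h, at 0.57 (SE 0.33, adjusted p = 1).
ENPP1+ATP against ATP compares ATP given with and without ENPP1, and 4 members passed at 24 h (43.9% of all genes) and 5 at 48 h (39.5%). Robo3 was 8.36-fold higher at 24 h (log2 3.06, edgeR adjusted p = 4.3e-11) and 7.68-fold higher at 48 h (2.94, adjusted p = 3.0e-11). Slit1 was higher by 2.09 at 24 h (adjusted p = 3.8e-04) and by 2.29 at 48 h (adjusted p = 1.5e-04), and Robo1 by 0.35 (adjusted p = 9.4e-05) and by 0.52 (adjusted p = 3.3e-07). Slit3 was lower at 24 h (-0.98, adjusted p = 0.0024), a call lost without ATP replicate 2 (-0.61, adjusted p = 0.11), and lower at 48 h (-1.56, adjusted p = 4.1e-06). Slit2 was lower at 48 h (-0.34, adjusted p = 2.1e-06), and its value at 24 h was 0.03 (adjusted p = 0.64).

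AMP against ENPP1+ATP moved 2 members at 24 h (6.25% of all genes) and 0 at 48 h (0.162%). At 24 h Robo3 was 1.68-fold higher with AMP (log2 0.75, SE 0.14, edgeR adjusted p = 0.0040) and Slit2 lower (-0.20, SE 0.05, adjusted p = 0.015). Robo1 stood at 0.20 (edgeR adjusted p = 0.059). It passed with the replicate number as a block (0.20, adjusted p = 0.046) and with DESeq2 (0.21, adjusted p = 0.038). The Robo3 call was lost without ENPP1+ATP replicate 2 (0.67, adjusted p = 0.058), and the Slit2 call without AMP replicate 1 (adjusted p = 0.10), ENPP1+ATP replicate 1 (adjusted p = 0.087) or ENPP1+ATP replicate 2 (adjusted p = 0.073). Without AMP replicate 2 Slit3 passed as lower (-1.24, adjusted p = 0.040). At 48 h the libraries of both media overlapped for each of the 6 members, and 29 genes passed in all.
The mean of ENPP1+ATP and AMP against the mean of vehicle, ENPP1 and ATP, the contrast of AMP-type media, moved 6 members at 24 h (62.3% of all genes) and 5 at 48 h (56.1%). In this contrast Robo3 was higher by 4.88 at 24 h and 4.59 at 48 h, Slit1 by 2.71 and 2.85 and Robo1 by 0.19 and 0.57. Slit3 was at -2.22 and -2.26, Slit2 at -0.27 and -0.40 and Robo2 at -0.94 and -0.28, of which the last did not pass (adjusted p = 0.28). The libraries of the AMP-type and other media overlapped at 24 h for Robo1, Robo2 and Slit2 and at 48 h for Robo2. Without 48 h AMP replicate 1 the Robo2 value at 48 h was -0.69 (adjusted p = 0.010).

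Between 24 and 48 h Slit2 and Slit3 each passed with 4 of the 5 media and Robo1 with 3. With vehicle 2 members passed (4.88% of all genes), Slit3 at 0.76 (edgeR adjusted p = 0.018) and Slit2 at 0.16 (adjusted p = 0.043), both higher at 48 h, and neither passed without any one of the 4 libraries. With ENPP1 2 members passed (7.95%), Slit2 at 0.21 (adjusted p = 0.0070) and Slit3 at 0.64 (adjusted p = 0.045). The Slit3 call was lost without any one of the 4 libraries, and the Slit2 call without 24 h replicate 2 (adjusted p = 0.16) or 48 h replicate 1 (adjusted p = 0.093).
With ATP 4 members passed (14.8%), namely Slit3 at 1.14 (adjusted p = 5.6e-04), Slit2 at 0.41 (adjusted p = 1.7e-06), Robo1 at 0.45 (adjusted p = 3.6e-05) and Robo3 at 0.64 (adjusted p = 0.031). Without 48 h ATP replicate 1 the Robo3 value was 0.27 (adjusted p = 0.59), and it was also lost without 24 h ATP replicate 1 (adjusted p = 0.086) or 24 h ATP replicate 2 (adjusted p = 0.23).
With ENPP1+ATP 3 members passed (40.7%), Robo1 at 0.62 (adjusted p = 2.7e-08), Robo2 at 1.26 (adjusted p = 0.0056) and Robo3 at 0.52 (adjusted p = 0.0063). The Robo3 call was lost without 24 h ENPP1+ATP replicate 2 (adjusted p = 0.074) or 48 h ENPP1+ATP replicate 2 (adjusted p = 0.12). With AMP 3 members passed (43.1%), Robo1 at 0.47 (adjusted p = 1.2e-06), Slit2 at 0.23 (adjusted p = 3.8e-04) and Slit3 at 1.04 (adjusted p = 0.0023). Without 24 h AMP replicate 2 the Slit3 value was 1.73 (adjusted p = 2.6e-04).
The test of the difference between times in the response to ENPP1+ATP passed for 2 members (30% of all genes). Robo1 differed by 0.60 (SE 0.09, edgeR adjusted p = 1.3e-05) and Robo2 by 1.51 (SE 0.47, adjusted p = 0.016), both with the higher value at 48 h. The Robo2 call was lost without any 1 of 4 libraries (adjusted p = 0.055 to 0.075), with values of 1.33 to 1.47. For AMP it passed for 1 member (31.7% of all genes), Robo1 at 0.45 (SE 0.09, adjusted p = 3.3e-04). For Robo3, Slit1, Slit2 and Slit3 this difference did not pass for either medium in the main test. Without the low-count filter Robo3 passed for AMP (-0.69, edgeR adjusted p = 0.026), against -0.71 (adjusted p = 0.14) in the main test.

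The known partners of the pathway, a list of 36 genes with srGAPs, adaptors, actin and small GTPase regulators, proteoglycans and other surface partners, gave 33 tested genes in CFs. At 24 h, 7 were higher and 15 lower with ENPP1+ATP (median log2 fold change -0.11), where 4265 of all genes were higher and 4522 lower (median -0.00). With AMP 5 were higher and 15 lower (median -0.15), beside 4525 and 4912 of all genes, and with ATP 1 was higher and 7 lower (median -0.07), beside 853 and 1130.
At 48 h, 13 were higher and 6 lower with ENPP1+ATP (median 0.04), beside 3719 and 4357 of all genes. With AMP 14 were higher and 7 lower (median 0.10), beside 3767 and 4099, and with ATP 2 were higher and 4 lower (median -0.02), beside 956 and 444.
Flrt3, a transmembrane protein that binds Robo1 and UNC5 receptors, fell by 1.39 with ENPP1+ATP (SE 0.15, edgeR adjusted p = 3.8e-08) and by 2.40 with AMP (SE 0.16, adjusted p = 5.2e-12) at 24 h, and by 2.33 (SE 0.16) and 2.18 (SE 0.16) at 48 h. Unc5b, a netrin receptor, fell by 0.91 and 0.89 at 24 h and by 0.67 and 0.52 at 48 h with the same media. Srgap3, which acts on small GTPases downstream of Robo, fell by 0.79 with ENPP1+ATP at 24 h (SE 0.10), while Srgap2 of the same family rose by 0.71 with ENPP1+ATP and 0.71 with AMP at 48 h (SE 0.05). Vasp, an actin regulator, fell by 0.77 with AMP at 24 h (SE 0.07).

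Genes of 3 other guidance families were counted in the same comparisons, in which 49.1% of all genes tested were called with ENPP1+ATP and 52.8% with AMP at 24 h, and 45.2% and 44% at 48 h, with 4265 higher and 4522 lower, 4525 and 4912, 3719 and 4357, and 3767 and 4099. Medians over all genes lay between -0.03 and -0.00. No family was tested against other genes. Unc5b stood in both the netrin family and the list of pathway partners, so it was counted in both. Of 6 netrin family genes tested, 1 was higher and 4 lower with ENPP1+ATP at 24 h and 2 and 3 at 48 h, and with AMP 2 were higher and 4 lower at 24 h and 2 and 2 at 48 h. The family's median log2 fold changes were -0.61 and -0.59 at 24 h and -0.12 and 0.00 at 48 h. Unc5c, a netrin receptor, fell by 1.53 with ENPP1+ATP (SE 0.12) and 1.87 with AMP (SE 0.12) at 24 h and by 2.00 and 2.14 at 48 h, and Ntn1, a secreted netrin, fell by 1.09 and 0.87 at 24 h. Ntn4, a netrin of basement membranes, rose by 1.59 with ENPP1+ATP (SE 0.20) and 1.52 with AMP (SE 0.20) at 48 h.
Of 18 semaphorin family genes tested, 1 was higher and 10 lower with ENPP1+ATP at 24 h, 1 and 13 with AMP, and at 48 h 5 and 7 with ENPP1+ATP and 5 and 5 with AMP. Its medians were -0.57 and -0.68 at 24 h and -0.18 and -0.13 at 48 h. Sema3a, a secreted repellent, fell by 2.65 with ENPP1+ATP (SE 0.40) and 3.39 with AMP (SE 0.41) at 24 h and by 1.32 with AMP at 48 h. Sema3c fell by 1.10 with ENPP1+ATP at 24 h and the plexin receptor Plxnc1 by 1.71 with ENPP1+ATP and 1.65 with AMP, and Plxna4 fell by 2.02 with AMP. At 48 h Sema3g fell by 2.10 with ENPP1+ATP and 1.41 with AMP, Sema3f fell by 0.95 with ENPP1+ATP, and Plxna1 rose by 1.06 and 1.21.
Of 17 ephrin family genes tested, 5 were higher and 5 lower with ENPP1+ATP at 24 h, 6 and 8 with AMP, and at 48 h 6 and 5 with each. Its medians were -0.06 and -0.27 at 24 h and 0.17 and 0.07 at 48 h. Among the Eph receptors Ephb2 rose by 1.45 with ENPP1+ATP at 24 h and 1.20 with AMP at 48 h, Epha2 rose by 1.01 and 1.16 at 48 h, Ephb6 fell by 1.26 and 1.64 at 24 h, and Epha3 fell by 2.51 and 2.15 with AMP at 24 and 48 h. Among the ephrin ligands Efnb3 rose by 1.23 at 24 h and 0.88 at 48 h with ENPP1+ATP, Efna3 rose by 0.96 at 48 h and Efnb1 rose by 1.26 with AMP at 24 h. All of these calls were made by edgeR's quasi-likelihood test over all genes.

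The markers of cell types in CFs moved with the same media. The summed level of the 8 fibroblast markers, none of them at 0, was 6857 to 7200 CPM with vehicle, 4948 to 5238 with ATP, 3364 to 3467 with ENPP1+ATP and 2633 to 2848 with AMP at 24 h. At 48 h it was 6731 to 7101, 6500 to 6561, 3500 to 3728 and 3715 to 3964 in the same order. The 9 macrophage markers summed to 8.45 to 8.69 CPM with vehicle and 49.7 to 50.8 with AMP at 24 h, and the 8 smooth muscle or pericyte markers to 116 to 119 and 170 to 182. At 48 h the AMP libraries reached 66.2 to 75.7 CPM of macrophage and 402 to 430 CPM of smooth muscle or pericyte markers. With ENPP1+ATP the macrophage sum was 25.5 to 32.8 CPM at 24 h and 61.0 to 70.9 CPM at 48 h. The smooth muscle or pericyte sum with ENPP1+ATP was 161 to 163 CPM and 358 to 372 CPM at the same times. The part of these marker levels in the changes of Slit and Robo genes was not tested.

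Across the 20 CF libraries the genes whose log2 level followed each member most closely were taken from 10881 or 10882 genes with enough reads. For Robo3 they were Gtse1 (Pearson r = 0.995), Btg2 (0.994) and Pmaip1 (0.994). For Robo1 they were Bcam (0.965), Ralgapa2 (0.960) and Ttc28 (0.959), and for Robo2 Scn2a (0.885), 3830406C13Rik (0.875) and Ift57 (0.866). Slit2 had Tmtc1 (0.980), Tacc1 (0.970) and Itga1 (0.969), and Slit3 had Rnf144a (0.975), Capn6 (0.975) and Itga1 (0.974), so Itga1, an integrin subunit, stood in the list of both ligands. These libraries share media and times, and the correlations only describe likeness of pattern.

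In NRVM libraries both receptors and both ligands that could be tested were lower in the ENPP1+ATP, AMP and ATP groups. All 4 members passed with ENPP1+ATP (56% of all 13461 genes tested), 4 with AMP (57.2%) and 4 with ATP (59.9%), and 0 passed with ENPP1 (0%), where 0 genes passed in edgeR or DESeq2 and 693 genes, no member among them, had an unadjusted p under 0.05. Robo3 had 0 to 2 reads and Slit1 0 to 9 reads per library and were not tested, and Robo4 had no row in this table.
Robo1 stood at 56.2, 53.6 and 53.7 CPM with vehicle, 52.8, 57.2 and 54.6 with ENPP1, 14.5, 16.3 and 15.9 with ATP, 16.4, 19.2 and 18.6 with ENPP1+ATP and 14.7, 12.4 and 17.2 with AMP. Robo2 stood at 24.0, 24.9 and 24.4 with vehicle, 29.6, 27.3 and 25.9 with ENPP1, 3.99, 4.57 and 4.25 with ATP, 5.14, 4.79 and 5.43 with ENPP1+ATP and 4.08, 3.30 and 4.63 with AMP. For both receptors every library of these 3 media lay below every vehicle and ENPP1 library.
Robo1 fell by 1.59 on the log2 scale with ENPP1+ATP (SE 0.08, edgeR adjusted p = 5.7e-21), by 1.89 with AMP (SE 0.08, adjusted p = 6.2e-23) and by 1.81 with ATP (adjusted p = 7.2e-23). Robo2 fell by 2.25 (SE 0.12, adjusted p = 7.4e-21), by 2.61 (SE 0.12, adjusted p = 2.7e-22) and fell by 2.51 (adjusted p = 2.5e-22) with the same media.

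Slit2 stood at 46.9, 50.2 and 49.0 CPM with vehicle, 50.5, 47.6 and 42.2 with ENPP1, 12.9, 17.4 and 11.7 with ATP, 12.5, 15.6 and 13.8 with ENPP1+ATP and 10.1, 9.97 and 24.5 with AMP. Slit3 stood at 60.2, 66.3 and 65.2 with vehicle, 59.5, 69.7 and 57.9 with ENPP1, 8.64, 17.5 and 11.6 with ATP, 11.4, 16.9 and 14.3 with ENPP1+ATP and 11.1, 11.9 and 35.4 with AMP. AMP replicate 3 was the highest of its medium for both ligands, yet below all vehicle libraries.
Slit2 fell by 1.80 with ENPP1+ATP (SE 0.28, edgeR adjusted p = 2.1e-04), by 1.72 with AMP (SE 0.28, adjusted p = 2.7e-04) and by 1.79 with ATP (adjusted p = 1.8e-04). Slit3 fell by 2.16 (SE 0.38, adjusted p = 5.1e-04), by 1.73 (SE 0.36, adjusted p = 0.0018) and by 2.33 (adjusted p = 2.8e-04). Without AMP replicate 3 the AMP value of Slit3 was -2.47 (adjusted p = 8.68e-06).

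Markers of other cells differed between these libraries. The 7 fibroblast markers listed, none at 0, summed to 24748 to 26134 CPM with vehicle, 24902 to 25285 with ENPP1, 10367 to 11702 with ATP, 8274 to 8735 with ENPP1+ATP and 11517 to 12293 with AMP, and 5 of them fell with ENPP1+ATP, 5 with AMP and 6 with ATP. The summed endothelial level was 20.5 to 26.3 CPM with vehicle, 54.2 to 77.1 with ATP, 37.7 to 43.2 with ENPP1+ATP and 35.5 to 93.9 with AMP, where AMP replicate 3 was the highest. The cardiomyocyte level was 26910 to 27893 CPM with vehicle, 15652 to 16714 with ATP, 24380 to 25574 with ENPP1+ATP and 27654 to 29594 with AMP. Smooth muscle or pericyte markers summed to 2395 to 2533 CPM with vehicle. With ATP they summed to 1993 to 2049, with ENPP1+ATP to 1875 to 1883 and with AMP to 1882 to 1982. Macrophage markers summed to 4.56 to 5.44 CPM with vehicle. With ATP they reached 15.1 to 16.7, with ENPP1+ATP 8.94 to 11.5 and with AMP 9.81 to 12.3. The part of these levels in the lower Slit and Robo values was not tested.

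**Figure D3:**
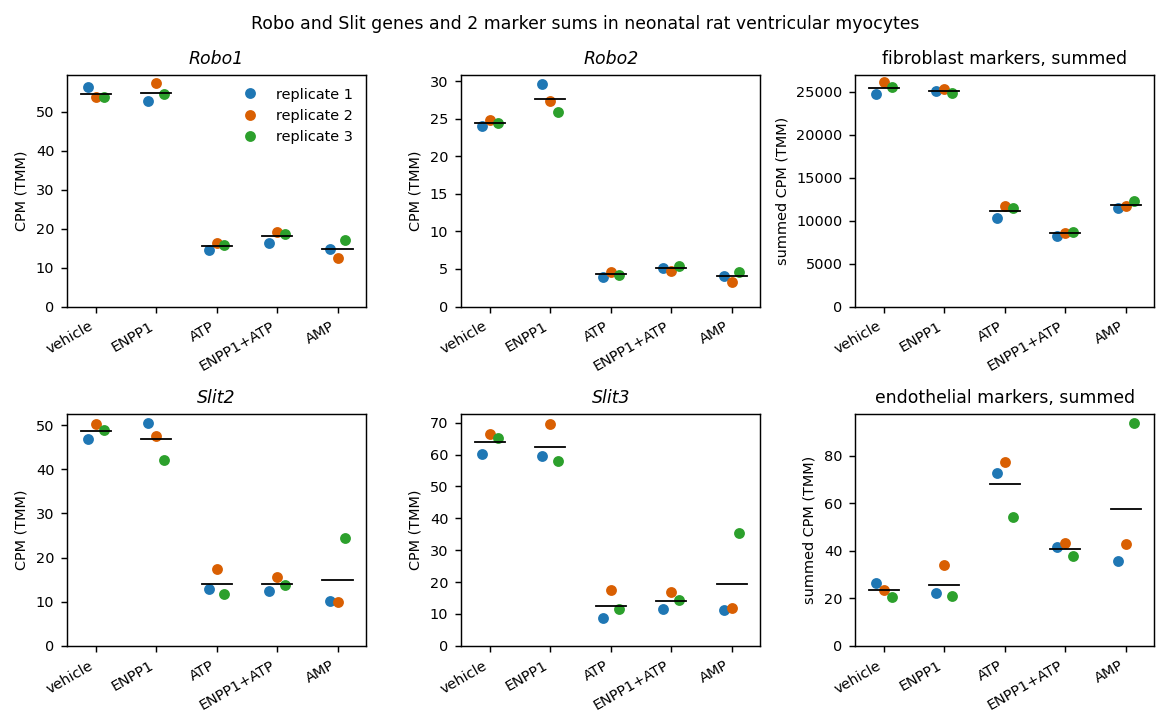
Level of Robo1, Robo2, Slit2 and Slit3 in CPM (TMM) in each NRVM library by medium, beside the summed levels of fibroblast and endothelial markers, 1 point per replicate. All 4 members lie lower with ATP, ENPP1+ATP and AMP than with vehicle, as does the fibroblast sum, and AMP replicate 3 is high for Slit2 at 24.5, Slit3 at 35.4 and endothelial markers at 93.9 CPM.

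Between media of NRVMs, 0 members passed for ENPP1+ATP against ATP (27.5% of all genes) and 1 for AMP against ENPP1+ATP (9.66%). The latter was Robo1, lower with AMP (log2 fold change -0.30, SE 0.09, edgeR adjusted p = 0.032), where the libraries overlapped and the call was lost without AMP replicate 1 (adjusted p = 0.077), AMP replicate 2 (-0.19, adjusted p = 0.30), ENPP1+ATP replicate 2 or ENPP1+ATP replicate 3. Of 33 pathway partners tested, 5 were higher and 16 lower with ENPP1+ATP (median -0.15), 5 and 15 with AMP (median -0.15) and 7 and 14 with ATP (median -0.11), beside 3846 and 3692, 3931 and 3772, and 4064 and 4003 of all genes.
Over the 15 NRVM libraries, the genes most like Robo1 in log2 level included Robo2 (Pearson r = 0.995) and Id3 (0.993), and those most like Robo2 were Rhoj (0.995), Robo1 (0.995) and Notch2 (0.993). For Slit2 they were Efnb2 (0.985), Dchs1 (0.983) and Slit3 (0.982), and for Slit3 Colec12 (0.989), Tenm3 (0.986) and Efnb2 (0.985). The pool held 10658 genes, and the libraries again share their media.

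In the injured hearts, the ligand Slit2 and the receptor Robo1 were read mainly in fibroblast-like cells, Slit3 in fibroblast-like and mesothelial-like cells and Robo4 in endothelial-like cells. The control library held 5347 barcodes and the ENPP1CKO library 7460, of which 5240 and 7255 cells were kept at a median of 3701 and 3367 counts per cell, and 68 barcodes occurred in both. With 1 library per genotype there is no test between genotypes, and all intervals below (exact Poisson or binomial, 95%) cover counting error only.
Fibroblast-like cells numbered 1784 in the control and 3661 in ENPP1CKO, with a median depth of 5067 and 4029 counts. They came from 4 clusters, and the cluster with the most of them was cluster 2 in the control (1155) and cluster 0 in ENPP1CKO (1696). Enpp1, the deleted gene, had 127 CPM in control and 28.5 CPM in ENPP1CKO fibroblast-like cells, a ratio of 0.225 (0.202 to 0.251).

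Slit2 gave 376 counts in control and 605 in ENPP1CKO fibroblast-like cells, or 38.5 CPM (34.7 to 42.6) and 37.6 CPM (34.6 to 40.7), a ratio of 0.975 (0.856 to 1.11). These cells held 90.2% of all Slit2 counts of the control and 94.7% of those of the ENPP1CKO library. Slit2 was seen in 16.9% (15.2 to 18.8) of control and 13.6% (12.5 to 14.7) of ENPP1CKO fibroblast-like cells, against 0.198% of macrophage-like cells in each library, at a median depth of 3213 and 3246 counts, a background level. With every cell thinned to 1000 counts, which left 1740 and 3551 fibroblast-like cells, these shares were 3.51% (2.69 to 4.48) in control and 4.17% (3.53 to 4.88) in ENPP1CKO, so their order turned, and the ratio of levels was 1.22. By cluster the ratio was 1.71 (1.13 to 2.70) in cluster 0, 1.08 (0.787 to 1.51) in cluster 1, 1.01 (0.836 to 1.21) in cluster 2 and 0.478 (0.206 to 1.06) in cluster 11.

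Slit3 gave 79 counts in control and 245 in ENPP1CKO fibroblast-like cells, or 8.10 CPM (6.41 to 10.1) and 15.2 CPM (13.4 to 17.2), a ratio of 1.88 (1.45 to 2.45). Over the 12593 genes with enough counts in this class the median ratio was 1.01, the 5th percentile 0.606 and the 95th percentile 1.60. The ratio was above 1 in each of the 3 clusters with enough counts, at 2.55 (1.12 to 7.13) in cluster 0, 1.37 (0.875 to 2.22) in cluster 1 and 2.08 (1.38 to 3.16) in cluster 2. Slit3 was also read in mesothelial-like cells, 116 of the control and 31 of ENPP1CKO, with 73 counts or 63.5 CPM (49.7 to 79.8) and 9 counts or 46.5 CPM (21.3 to 88.3), a ratio of 0.733 (0.322 to 1.47). Fibroblast-like cells therefore held 49.7% of all Slit3 counts of the control and 94.96% of those of the ENPP1CKO library. With every cell thinned to 1000 counts, Slit3 in mesothelial-like cells had 6 counts in control and 2 in ENPP1CKO. These were 51.7 CPM (19.0 to 113) and 64.5 CPM (7.81 to 233), so the order of the libraries turned on few counts.
The mesothelial-like cluster had all 6 markers of its name but was led by Saa3 and Clu, with none of these markers among its top 10 genes. The 8 fibroblast markers, 1 of them at 0, summed there to 16952 CPM in the control and 20987 CPM in ENPP1CKO, against 40649 and 42230 CPM in fibroblast-like cells, and their part in the Slit2 and Slit3 levels was not tested. There Slit2 had 16 counts or 13.9 CPM (7.95 to 22.6) in the control and 13 counts or 67.2 CPM (35.8 to 115) in ENPP1CKO, a ratio of 4.83 (2.14 to 10.7) that rests on 31 ENPP1CKO cells. The summed mesothelial markers also differed between the libraries in this cluster, at 513 CPM in the control and 2315 CPM in ENPP1CKO, and their part in the Slit2 value was not tested.

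Robo1 gave 135 counts in control and 242 in ENPP1CKO fibroblast-like cells, or 13.8 CPM (11.6 to 16.4) and 15.03 CPM (13.2 to 17.0), a ratio of 1.09 (0.877 to 1.35). These cells held 86.5% of its counts in the control and 92.7% in ENPP1CKO. Robo2 had 11 and 21 counts in fibroblast-like cells, a ratio of 1.16 (0.533 to 2.66). In endothelial-like cells Robo2 had 9 counts in ENPP1CKO, or 5.22 CPM (2.39 to 9.92), and 0 in the control, whose level of 3 counts was 5.36 CPM, so a difference was not detectable at this depth.
Robo4 gave 27 counts in the 192 control and 135 in the 932 ENPP1CKO endothelial-like cells, or 48.2 CPM (31.8 to 70.2) and 78.4 CPM (65.7 to 92.8), a ratio of 1.63 (1.07 to 2.56). These cells held 87.1% of all Robo4 counts in the control and 93.1% in ENPP1CKO, and the share of cells with Robo4 was 11.98% (7.75 to 17.4) and 13.3% (11.2 to 15.7) against 0.0794% and 0.0989% of macrophage-like cells. The median depth was 2602.5 counts in control and 1472.5 in ENPP1CKO endothelial-like cells, the summed endothelial markers were 12881 and 25241 CPM, and over the 7822 genes with enough counts the ratio had a median of 0.969, a 5th percentile of 0.520 and a 95th percentile of 1.81. Within the larger endothelial-like cluster the Robo4 ratio was 1.49 (0.974 to 2.37). With every cell thinned to 1000 counts, which left 176 control and 691 ENPP1CKO endothelial-like cells, Robo4 had 6 and 56 counts, or 34.1 CPM (12.5 to 74.2) and 81.0 CPM (61.2 to 105), a ratio of 2.38. The shares of cells with Robo4 were then 2.84% (0.929 to 6.50) and 7.67% (5.80 to 9.91). The part of the marker level in the Robo4 value was not tested.
Robo3 was not read in fibroblast-like cells of either library, 0 of 1784 and 0 of 3661 cells. The level of 3 counts, taken as the limit that 0 counts allow, was 0.307 CPM in the control and 0.186 CPM in ENPP1CKO, and the upper ends of the exact Poisson intervals were 0.378 and 0.229 CPM. Its only counts were 2 in ENPP1CKO endothelial-like cells, and Slit1 was seen with 3 counts in ENPP1CKO cells and with 0 in those of the control.

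**Figure D4:**
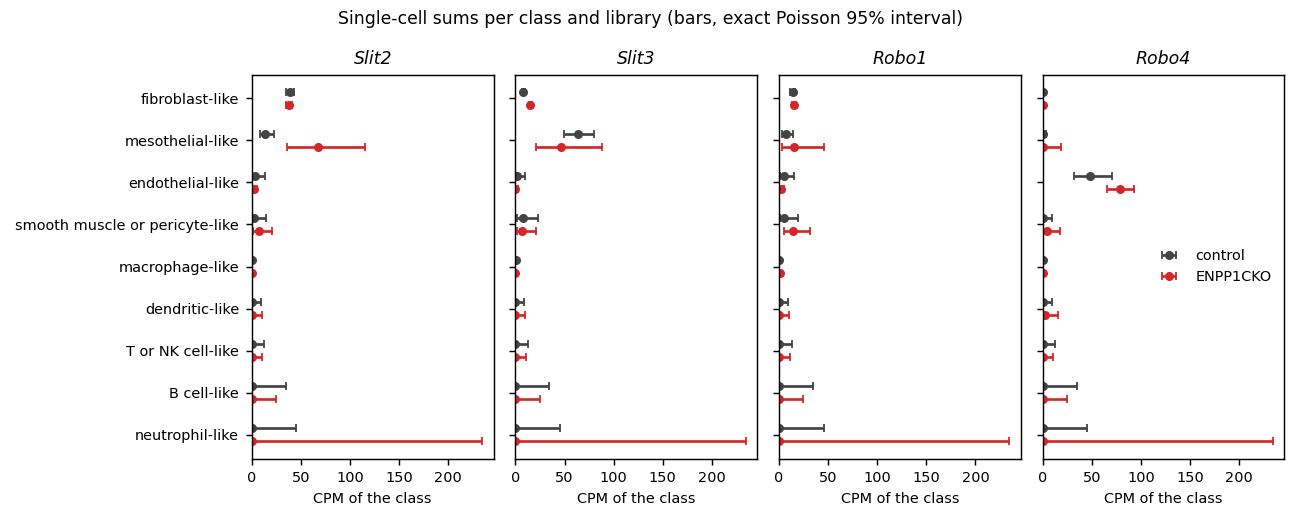
Summed level of Slit2, Slit3, Robo1 and Robo4 (CPM of the class) in 9 cell classes of the control (grey) and ENPP1CKO (red) library, with exact 95% Poisson intervals. Slit2 stands near 38 CPM in fibroblast-like cells of both libraries, Slit3 at 8.10 and 15.2 CPM, and Robo4 at 48.2 and 78.4 CPM in endothelial-like cells, while macrophage-like cells are near 0.

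Over the 18 sums of a class in a library with enough cells, the genes most like each member were Adgrl4 (Pearson r = 0.960), Cldn5 (0.951) and Cdh5 (0.930) for Robo4, and Ncam1 (0.973), Ptprf (0.963) and Ptgis (0.954) for Slit3. For Slit2 they were Egfr (0.946), Uggt2 (0.932) and L3hypdh (0.928), and for Robo1 Zfp9 (0.975), H2afy2 (0.967) and Pdzrn3 (0.962). These sums share libraries and differ in depth, so the values describe likeness only.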

How the data were processed

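Bulk RNA of 20 CF and 15 NRVM libraries and single cells of 2 heart libraries were analysed. The authors deposited read counts per gene for the bulk libraries and counts per gene and cell for the hearts. The submitters' processing notes name STAR 2.5.3a, Cell Ranger and the builds mm10 and rn6, and the program and strand setting of the bulk counting are not given in the sources used here. All sample columns were used (0 left out). The members and gene lists were chosen with earlier results of these data known.

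Each bulk table was fitted as a whole in edgeR 4.0.16 (R 4.3.3) with 1 term per group, filterByExpr, TMM scaling and the quasi-likelihood test, and p-values were adjusted by Benjamini-Hochberg over all genes tested with a threshold of 0.05. Levels are TMM-scaled CPM, and levels per kb divide by the union of exons. The test was run on simulated data first. Alternatives were DESeq2 1.42.0, RLE size factors, no low-count filter, the replicate number as a block and leaving out each library. No replicate pair agreed within sampling noise (chi-square per degree of freedom 2.46 to 36.5).

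Named were all members, up to 3 genes per pathway list with the largest change past the threshold with ENPP1+ATP or AMP against vehicle in CFs, and the 3 genes most correlated with each member. Results that need withheld items are not reported here. The like-pattern pool needed a mean log2 CPM of at least 2 in bulk, or 500 counts in single cells, and members there needed a mean log2 CPM of 0, or 100 counts.

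Cells needed 200 genes and at most 20% mitochondrial counts, and predicted doublets (2.02% in ENPP1CKO, 1.29% in the control) were removed. Of 31053 identifiers 119 had no symbol. Scanpy 1.11.5 gave 18 Leiden clusters (resolution 0.5, 30 components, 2000 variable genes), named as X-like from marker lists, so classes are rebuilt here and need not match those of the study. Cluster 7, with 121 control and 106 ENPP1CKO cells, was left unnamed and stands outside these classes. It held 17 and 10 Slit2 counts. Counts were summed per class and library, with 95% intervals and a floor of 3 counts that cover counting error only. Ratios were given where both libraries together held at least 20 counts and each held more than 3. The medians and percentiles over all genes of a class used the same rule.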

Additional observations from a re-analysis of the deposited data

Results flagged for a closer look

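Robo1 responded differently to ENPP1+ATP MCndM at the 2 times in CFs. Its log2 fold change against vehicle was 0.60 higher at 48 h than at 24 h (edgeR interaction term, adjusted p = 1.3e-05), and for AMP the difference was 0.45 (adjusted p = 3.3e-04). Both media share the vehicle libraries of each time, so these values are not independent of each other.

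The response of Robo2 to ENPP1+ATP also differed between times, by 1.51 (edgeR adjusted p = 0.016). This call was lost without 24 h ENPP1+ATP replicate 1 (adjusted p = 0.057), 24 h vehicle replicate 2 (0.055), 48 h ENPP1+ATP replicate 2 (0.058) or 48 h vehicle replicate 2 (0.075), with values of 1.33 to 1.47.

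With AMP at 24 h every CF library lay above vehicle for Robo1 (log2 fold change 0.15, edgeR adjusted p = 0.052) and every NRVM library below it (-1.89). The difference between the cell types was not tested, because the tables were normalized separately and come from different species.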

How the results depend on the processing

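For ENPP1+ATP, AMP and ATP against vehicle, 35 of 36 member values in CFs kept their direction and their side of the threshold under DESeq2, RLE size factors and the replicate block, and 36 of 36 without the low-count filter and with the deepest library thinned. The exception was Robo1 with AMP at 24 h, which passed under the first 3. All 12 NRVM values of these media against vehicle kept both under every setting run. With ENPP1 alone no member passed under any setting, and the sign of 3 of 6 CF values at 24 h, 3 of 6 at 48 h and 3 of 4 NRVM values changed with the setting.

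Without the low-count filter, genes called with ENPP1 were 26 and 180 in CFs at 24 and 48 h and 14 in NRVMs, and for AMP against ENPP1+ATP at 48 h 322 (158 with DESeq2, 47 with the replicate block, 29 in the main test). Members called were then 1 for vehicle between times and 2 for the AMP response between times, among them Robo3 (-0.69, edgeR adjusted p = 0.026). Robo3 with AMP (-0.30, adjusted p = 0.0069) and Slit3 with ENPP1+ATP (0.57, adjusted p = 0.048) also passed between times. Same-numbered libraries of different groups deviated from their group means with r of -0.11 to 0.28 over 90 CF pairs. Over 30 NRVM pairs r was -0.17 to 0.12. Above 0.1 lay 6 CF pairs and 1 NRVM pair, so this check does not settle whether replicate numbers pair some samples. With the replicate block, genes called against vehicle numbered 8933, 9522 and 2129 in CFs at 24 h with ENPP1+ATP, AMP and ATP, 8181, 7985 and 1525 at 48 h, and 7524, 7703 and 8093 in NRVMs. The block moved Robo1 at 24 h past the threshold with AMP (0.15, adjusted p = 0.047) and for AMP against ENPP1+ATP (0.20, adjusted p = 0.046), as DESeq2 did (0.21, adjusted p = 0.038).

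Leaving out 1 library gave these ranges in CFs. At 24 h they were -0.12 to 0.017 for Robo1 with ENPP1+ATP, 920 to 1205 genes for ATP, and 255 to 1183 genes and 0 to 3 members for AMP against ENPP1+ATP. At 48 h they were -0.31 to 0.067 for Robo2 with ENPP1+ATP, 646 to 929 genes for ATP, 0 to 129 for ENPP1 and 2 to 106 for AMP against ENPP1+ATP. Between times they were 235 to 440 genes and 0 members with vehicle, 352 to 1077 genes and 0 to 1 members with ENPP1, 1387 to 1735 genes with ATP, and -0.44 to 0.92 for Robo2 with AMP. For the difference in response they were 1 to 2 members for ENPP1+ATP, and 1 to 2 members and -0.19 to 1.16 for Robo2 with AMP. In NRVMs they were 0 to 1 members and -0.034 to 0.50 for Slit3 in ENPP1+ATP against ATP, and 0 to 2 members and -0.48 to 0.29 for Slit2 in AMP against ENPP1+ATP.

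Without AMP replicate 3, ATP replicate 2 and ENPP1 replicate 2, a choice made after seeing their endothelial markers, 2 members passed for ENPP1+ATP against ATP in NRVMs, Robo1 at 0.26 (adjusted p = 0.046) and Slit3 at 0.50 (adjusted p = 0.0034). For AMP against ENPP1+ATP 2 members passed, and Slit2 turned to -0.49 (edgeR adjusted p = 0.0036). Endothelial markers do not single out ATP replicate 2 (77.1 CPM), since ATP replicate 1 was kept at 72.5 CPM. Each library left out also held the highest Slit3 of its medium, at 35.4 CPM with AMP, 17.5 with ATP and 69.7 with ENPP1. AMP replicate 3 and ATP replicate 2 were highest for Slit2 too, so the changed Slit calls are no independent support. Thinned to 1000 counts per cell, Slit2 in ENPP1CKO fibroblast-like cells was 43.4 CPM and its ratio 1.22, Slit3 was 20.0 CPM there and 8.62 CPM in the control, a ratio of 2.32, and the cause of these shifts was not tested. Thinning left out 241 ENPP1CKO and 16 control endothelial-like cells. Values of 2 libraries a group limit precision. Slit1 rests on under 100 reads in every CF library but 24 h AMP replicate 2 (146 reads), and Robo2 in most of them. Slit3 rests on under 100 reads in several CF libraries, as does Robo3 in every vehicle and ENPP1 library.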
